A study of Mus musculus with 17 samples.

Results

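The genes that make, carry, bind, clear and sense retinoic acid were followed in cardiac fibroblasts (CFs) during the first 6 days after myocardial infarction (MI). The set held 8 genes, chosen by symbol from a table of 31053 mouse genes: *Adh1*, *Aldh1a1*, *Aldh1a2*, *Aldh1a3*, *Rbp4*, *Crabp2*, *Cyp26b1* and *Rarb*. Each symbol matched 1 Ensembl gene, and all 8 had enough counts to be tested. The CFs came from infarcted hearts of C57BL/6 mice that carried a Collagen1a1-GFP reporter and were 8-10 weeks old, and they were sorted as GFP+/CD31-/CD45- cells. The infarct was made by permanent ligation of the left anterior descending coronary artery, and no uninjured heart is in the series, so every comparison was between days post-infarction (dpi). Bulk poly-A RNA was read from its 3′ ends (MARS-seq) in 17 libraries. The days 1, 2, 4 and 6 dpi had 3 libraries each, while 3 dpi had 4 and 5 dpi had 1. The sort rests on a collagen reporter, so cells that do not express it were not sampled. The study's methods also describe an enrichment on mEFSK4 (anti-feeder) beads before the sort. They name GFP and/or mEFSK4 staining as the basis of sorting. Which of these applied to each bulk library is not stated. The study calls its bulk replicates biological. Its section on single-cell preparation names individual mice as the source of interstitial cells for 3 and 5 dpi, and hearts were pooled for single-cell sequencing. For the bulk libraries of any day, the number of hearts in a library is not given in the sources used here.

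Retinoic acid is made from retinol (vitamin A) in 2 steps. Retinol, brought by the plasma carrier RBP4, is first oxidised to retinaldehyde by alcohol and retinol dehydrogenases such as ADH1 and RDH10, and retinaldehyde is then oxidised irreversibly to retinoic acid by ALDH1A1, ALDH1A2 or ALDH1A3. CRABP2 carries retinoic acid to its nuclear receptors, of which RARB is one, and CYP26 enzymes break it down. In the heart ALDH1A2 is known from the epicardium and from the fibroblasts that derive from it, and *Rarb* and *Cyp26a1* are textbook targets that retinoic acid receptors induce from sites in their own promoters.

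These sites are shown because the receptor gene of the set carries one. The promoter windows of RefSeq (GRCm38.p6, from 250 bases before to 50 after the start) were searched on both strands for direct repeats of a half-site with a spacer of 1, 2 or 5 bases, and such repeats stood in 0.222%, 0.268% and 0.0974% of 32851 windows. The half-sites allowed were AGGTCA as well as AGTTCA, and also GGGTCA as well as GGTTCA, in any pairing. Of the 8 genes, 6 had a window, and *Aldh1a3* and *Crabp2* had none. A repeat was found for *Rarb* alone among them, with a spacer of 5 bases, on the strand of the gene, at bases -53 to -37 from the start. In a wider list of retinoid genes the same spacing was found for *Cyp26a1*, on the other strand, at -32 to -16, and a repeat with a spacer of 1 base for *Bco1*, which encodes an enzyme that cleaves beta-carotene, on the other strand at -56 to -44. The 120 bases before the start follow for *Rarb* and *Cyp26a1*, 5′ to 3′ along the gene, with the repeat in capitals. The *Rarb* window is chr14:16575477-16575596 on the minus strand, and the *Cyp26a1* window is chr19:37697688-37697807 on the plus strand. A match is a description of the letters and does not show binding.
Rarb: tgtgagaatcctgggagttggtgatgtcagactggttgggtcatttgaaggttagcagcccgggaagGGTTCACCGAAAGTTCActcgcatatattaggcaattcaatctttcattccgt
Cyp26a1: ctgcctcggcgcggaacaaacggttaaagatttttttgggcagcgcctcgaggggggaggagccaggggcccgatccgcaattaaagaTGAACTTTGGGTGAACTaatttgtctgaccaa

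The libraries held 8021815 to 22029938 counts, so that 3 counts, the number that a count of 0 allows, stood for 0.136 to 0.374 CPM (counts per 1000000 counts of the library). Levels are given as CPM of library sizes normalised by the trimmed mean of M-values (TMM). They compare libraries for 1 gene and not genes with each other. Fibroblast markers were high throughout, with a summed level of 12399.5 CPM or more in each library for the 8 genes from *Col1a1* to *Ddr2*, while 6 endothelial markers summed to 18.4 to 77.5 CPM and 8 leukocyte markers to 13.6 to 189.7 CPM. Of these *Cdh5* of endothelium and *Ptprc* of leukocytes reached at most 4.98 and 2.75 CPM, and *Tek* of endothelium and *Lyz2* of leukocytes up to 42.1 and 124 CPM. The libraries also differed in sex-linked RNA: those of 4 and 6 dpi and 1 dpi replicate 1 had more counts of *Xist* than of 4 Y-linked genes, and the other 10 had the reverse. In 1 dpi both kinds were mixed in replicate 1, with 211.4 CPM of *Xist* and 10.6 CPM Y-linked. Replicate 2 of 1 dpi was mixed as well, with 19.0 and 60.0 CPM. The only 1 dpi library with more *Xist* is therefore a mixed one. The summed level of 6 cardiomyocyte markers was 17.1 to 34.8 CPM at 1 dpi, 7.89 to 19.6 CPM at 2 and 3 dpi, 39.9 to 67.4 CPM at 4 dpi and 74.5 to 175 CPM at 6 dpi, and was 13.3 CPM in the 5 dpi library. By the design, the differences of 4 and 6 dpi from 2 and 3 dpi cannot be told apart from the difference in sex-linked RNA. The libraries of 3 dpi are labelled in another form than those of all other days, and what the form marks is not stated. Differences between 3 dpi and other days cannot be told apart from whatever it marks. In bulk RNA, a smaller share of cells that express a gene and less RNA per cell cannot be told apart.

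Across the 6 days, 5 of the 8 retinoid genes changed. These were *Adh1*, *Aldh1a3*, *Aldh1a1*, *Crabp2* and *Rbp4* (edgeR's quasi-likelihood F-test over all days, Benjamini-Hochberg adjusted p = 1.8e-04, 2.2e-04, 0.012, 0.012 and 0.04). Over all 14030 genes tested, 15.0% passed the same threshold of 0.05. The 8 genes were chosen with earlier results of these data known, so this share and those below are no test of the set. *Aldh1a2* (adjusted p = 0.081), *Rarb* (0.69) and *Cyp26b1* (0.87) did not pass, although *Aldh1a2* did in DESeq2 (0.02, where 26.8% of all genes passed) and in edgeR without the filter on low counts (0.0051, beside 18.1%). Of the marker lists, 6 of 8 fibroblast, 5 of 6 cardiomyocyte, 3 of 6 mural, 2 of 8 leukocyte and 1 of 6 endothelial markers passed as well, and their part in these results was not tested. By their means, *Adh1* and *Aldh1a1* were highest at 2 dpi, *Aldh1a3* and *Rbp4* at 1 dpi and *Crabp2* at 6 dpi. The calls of *Adh1*, *Aldh1a3*, *Aldh1a1* and *Crabp2* were kept without each of the 17 libraries in turn. Among the 10 libraries in which Y-linked counts exceeded *Xist*, which cover 1, 2, 3 and 5 dpi and where 3.41% of all genes passed, *Adh1* (adjusted p = 0.035) and *Aldh1a3* (0.028) still passed, and *Aldh1a1* (0.3), *Crabp2* (0.19) and *Rbp4* (0.11) did not. The *Rbp4* call was kept in only 4 of the 17 fits that left out 1 library, those without 2 dpi replicate 3, 3 dpi replicate 2, 4 dpi replicate 3 or 6 dpi replicate 3, and its adjusted p ranged from 0.0033 to 0.086. *Aldh1a2* passed without 3 dpi replicate 2 (0.023) or without 6 dpi replicate 3 (0.045).

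**Figure D1:**
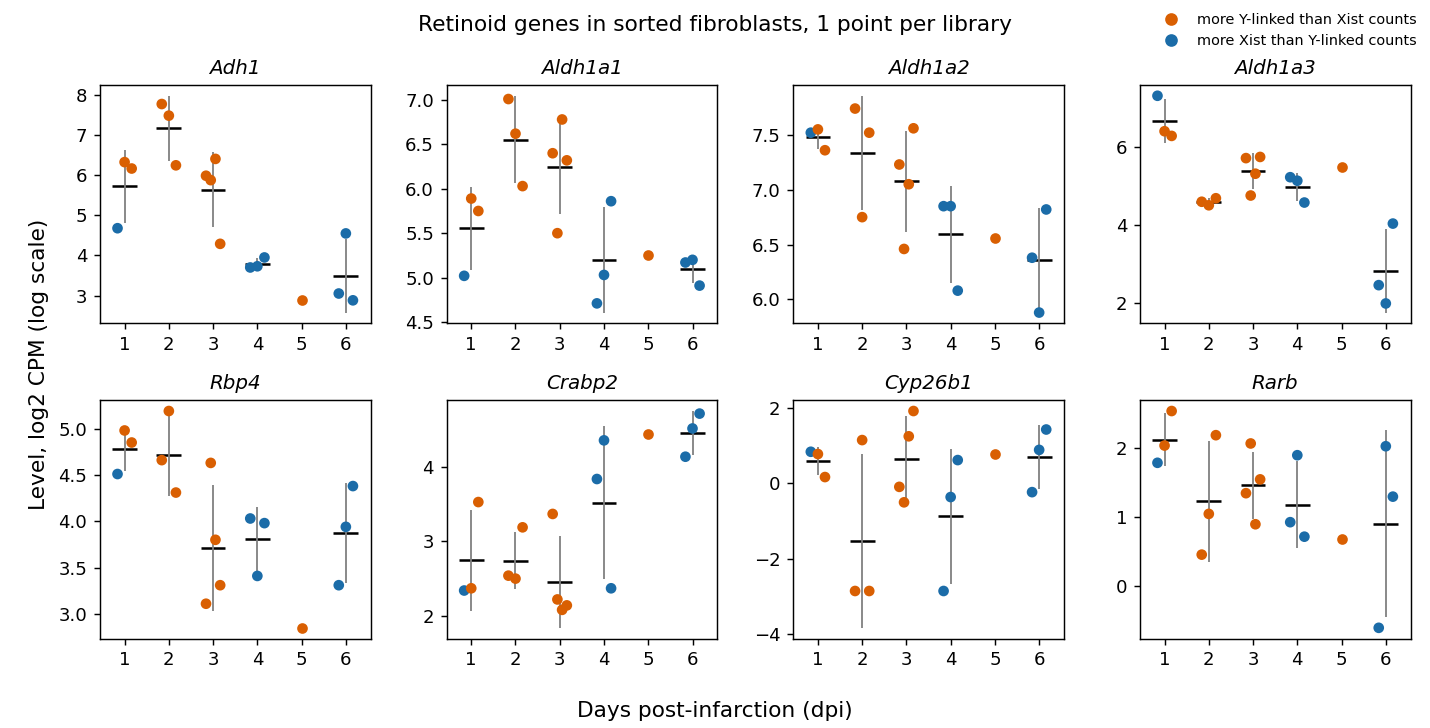
Level of each of the 8 retinoid genes (y axis, log2 CPM with a prior count of 2) against days post-infarction (x axis), with 1 point per library, black lines for the mean and grey lines for 1 SD where a day has more than 1 library. Colours mark whether Y-linked or Xist counts were the more numerous; Adh1 is highest at 2 dpi, Aldh1a3 is lowest at 6 dpi and Crabp2 is highest at 5 and 6 dpi.

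*Adh1* (ENSMUSG00000074207, chr3:138260991-138290698, plus strand, GRCm38) encodes the alcohol dehydrogenase that can take retinol to retinaldehyde. Its level was 25.6, 80.1 and 72.1 CPM in the libraries of 1 dpi and 220.1, 179 and 76.2 CPM in those of 2 dpi. At 3 dpi it was 63.3, 58.8, 85.1 and 19.4 CPM. The later libraries were low, with 12.9, 13.2 and 15.3 CPM at 4 dpi, 7.29 CPM at 5 dpi and 8.13, 23.3 and 7.22 CPM at 6 dpi. The libraries of 3 and 4 dpi did not overlap, whereas those of 1, 2 and 3 dpi overlapped with each other, and so did those of 4 and 6 dpi.

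Between 3 and 4 dpi *Adh1* fell by 2.04 on the log2 scale (SE 0.51, 4.13-fold, adjusted p = 0.036 by edgeR) and was the 1 gene of the 8 to pass; 2.71% of all genes tested passed in that comparison. So did 3 of 6 cardiomyocyte markers, 1 of 8 leukocyte markers and 1 of 8 fibroblast markers, whose part in the result was not tested. Leaving out 3 dpi replicate 1 or 3, or any library of 4 dpi, took the adjusted p to 0.07 to 0.14 with a log2 fold change of -2.13 to -1.77. A fit of these 2 days alone gave 0.054. The difference of 2 from 1 dpi was 1.41 on the log2 scale with a 95% interval of 0.35 to 2.48 (adjusted p = 0.47). The difference of 3 from 2 dpi was -1.48 (-2.46 to -0.51, adjusted p = 0.087). Both passed in edgeR without the filter on low counts (adjusted p = 5.0e-04 and 8.4e-06). At 6 dpi *Adh1* was lower than at 1 dpi by 4.62-fold (log2 fold change -2.21, SE 0.53, adjusted p = 0.011), which rose to 0.064 without 6 dpi replicate 1. Among the 7 libraries with more *Xist* counts, in which 1 dpi is the single library with 25.6 CPM, the difference was -0.98 (adjusted p = 0.34). The library of 5 dpi, which has the Y-linked pattern, held 7.29 CPM. It is 1 library, and the part of sex-linked RNA in the *Adh1* result was not tested.

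The 2 genes whose log2 CPM was most like that of *Adh1* over the 17 libraries, among genes with a mean of at least 100 counts, were *Galnt15* (Pearson r = 0.946) and *Glul* (0.926). *Adh1* also ran with *Aldh1a1* (r = 0.79), the highest value among the 28 pairs of the 8 genes; these are descriptions over libraries that share days. An antisense gene, *Gm16559*, overlaps *Adh1* and had 0 counts in the table. The adipocyte list, of which *Fabp4* carried nearly all counts, was also high in 2 of the libraries where *Adh1* was high, with 122 CPM in 2 dpi replicate 1 and 128 CPM in 2 dpi replicate 2 against 18.5 CPM in replicate 3. It was also high, at 130.1 CPM, in 3 dpi replicate 1, where *Adh1* was 63.3 CPM. The other 5 adipocyte markers, *Adipoq* and *Plin1* among them, stayed under 5 CPM in each library, and the part of this list in the *Adh1* result was not tested.

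*Aldh1a1* (ENSMUSG00000053279, chr19:20492715-20643465, plus strand) encodes a cytosolic retinaldehyde dehydrogenase. The level was 32.3, 59.3 and 53.5 CPM at 1 dpi, 128.8, 98.4 and 65.2 CPM at 2 dpi, and 84.2, 45.1, 109.6 and 80 CPM at 3 dpi. It was 26.1, 32.5 and 57.9 CPM at 4 dpi, 38.3 CPM at 5 dpi and 35.9, 36.5 and 29.9 CPM at 6 dpi. All 3 libraries of 2 dpi were above those of 1 dpi, and the libraries of 3 and 4 dpi overlapped through 3 dpi replicate 2 and 4 dpi replicate 3.

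No step between days passed for *Aldh1a1* in edgeR with the filter on low counts. The difference of 2 from 1 dpi was 1.01 on the log2 scale (SE 0.34, adjusted p = 0.42 by edgeR) and that of 4 from 3 dpi was -1.04 (SE 0.33, adjusted p = 0.096). The second of these passed without 3 dpi replicate 2 or without 4 dpi replicate 3, with an adjusted p as low as 0.021. It also passed in DESeq2 (0.035) and in edgeR without the filter (0.0072). The levels of 1 and 6 dpi overlapped, with a log2 fold change of -0.51 and a 95% interval of -1.22 to 0.21. Of the 50-base words in the last 600 bases of its transcript, 6.7% also occur in *Aldh1a7*, which had at most 9 counts in a library. The genes most like *Aldh1a1* over the 17 libraries were *Blnk* (r = 0.92) and *Tsc22d3* (0.917), a gene known to be induced by glucocorticoids.

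*Aldh1a2* (ENSMUSG00000013584, chr9:71215789-71296243, plus strand) encodes the retinaldehyde dehydrogenase of the embryonic heart and the epicardium. Its level was 183.8, 187 and 163.8 CPM at 1 dpi, 213, 107.8 and 183.6 CPM at 2 dpi, and 150.4, 88.0, 132 and 188.7 CPM at 3 dpi. It was 115.5, 115 and 67.6 CPM at 4 dpi, 94.5 CPM at 5 dpi and 83.1, 58.7 and 113 CPM at 6 dpi. The mean went down with each day, and each pair of neighbouring days overlapped.

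Over the whole interval *Aldh1a2* was 2.1-fold lower at 6 than at 1 dpi, and the libraries of these days did not overlap (log2 fold change -1.07, SE 0.32, adjusted p = 0.035 by edgeR). The adjusted p was 0.06 to 0.17 without any 1 library of 1 dpi or without 6 dpi replicate 1 or 2. Among the libraries with more *Xist* counts the difference was -1.11 (adjusted p = 0.14). The list of 10 epicardial and mesothelial markers summed to 104 to 349 CPM at 1 dpi and to 98.4 to 700.9 CPM at 6 dpi. The sum of 700.9 CPM was that of 1 library, 6 dpi replicate 2. The part of this list in the *Aldh1a2* result was not tested.

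*Aldh1a3* (ENSMUSG00000015134, chr7:66390890-66427517, minus strand) encodes the third retinaldehyde dehydrogenase. The libraries of 1 dpi held 160.1, 84.7 and 78.0 CPM and those of 2 dpi 24.1, 22.6 and 25.7 CPM. At 3 dpi the level was 52.6, 27.0, 39.7 and 53.7 CPM, at 4 dpi 37.4, 35.0 and 23.7 CPM and at 5 dpi 44.8 CPM. At 6 dpi it was 5.36, 3.83 and 16.4 CPM. Every library of 1 dpi lay above all others and every library of 6 dpi lay below all others.

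*Aldh1a3* fell in 2 of the 4 steps between days. From 1 to 2 dpi it fell by 2.15 on the log2 scale (SE 0.42, 4.45-fold, adjusted p = 0.035 by edgeR) and was the 1 gene of the 8 to pass, where 0.178% of all genes did. The difference of 3 from 2 dpi was 0.84 (95% interval 0.03 to 1.65, adjusted p = 0.25), with all 4 libraries of 3 dpi above those of 2 dpi. From 4 to 6 dpi it fell by 1.91 (SE 0.43, 3.76-fold, adjusted p = 0.049), again as the 1 gene of the 8, beside 0.513% of all genes. The call from 1 to 2 dpi was lost without 1 dpi replicate 1 (adjusted p = 0.27, log2 fold change -1.76), without any library of 2 dpi (0.14 to 0.19), without 4 dpi replicate 2 (0.058), and among the libraries with more Y-linked counts (-1.75, adjusted p = 0.071). The call from 4 to 6 dpi was kept in 4 of the 17 fits that left out 1 library, those without 3 dpi replicate 2, 4 dpi replicate 3, 5 dpi replicate 3 or 6 dpi replicate 3. In the others its adjusted p was 0.053 to 0.29. The 5 dpi library is alone in its day and adds no spread, so the fit without it is a weak check of this step. Among the libraries with more *Xist* counts the adjusted p of this step was 0.14 with a log2 fold change of -1.9. The fit of the 2 days alone gave the same values. Both fits hold every library of 4 and 6 dpi, so neither can show the part of sex-linked RNA.

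**Figure D2:**
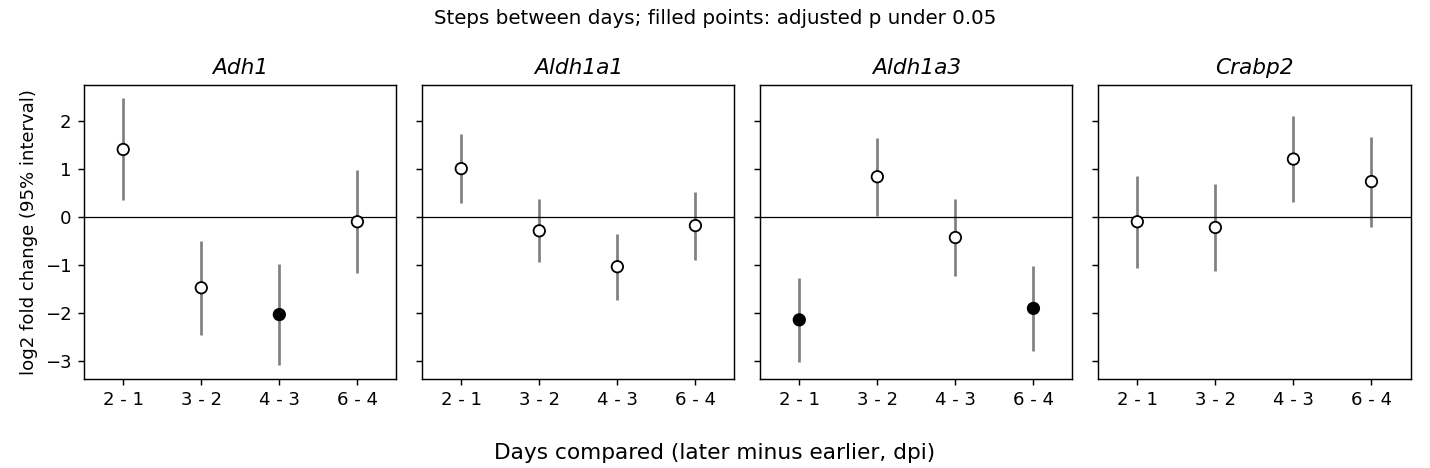
log2 fold change of each later day from the earlier one (y axis, with 95% intervals) for Adh1, Aldh1a1, Aldh1a3 and Crabp2 over the 4 steps between days with replicates (x axis). Filled points passed the adjusted threshold: Aldh1a3 fell by 2.15 from 1 to 2 dpi and by 1.91 from 4 to 6 dpi, and Adh1 fell by 2.04 from 3 to 4 dpi.

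The difference of *Aldh1a3* between the ends of the course was larger than that of any other gene of the set. At 6 dpi it was 12.6-fold lower than at 1 dpi (log2 fold change -3.66, SE 0.45, adjusted p = 4.4e-05 by edgeR). This call was kept without each library in turn, with a log2 fold change of -4.54 to -3.26. Among the libraries with more *Xist* counts, where 1 dpi is the single library with its highest level, 160.1 CPM, the difference was -4.22. The genes most like it were *Ebna1bp2* (r = 0.964 over 17 libraries), which acts in the making of ribosomes, and *Cxcl3* (0.94), a chemokine that attracts neutrophils. Of the 50-base words near the 3′ end of *Aldh1a3*, 2.76% occur in other genes.

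*Rbp4* (ENSMUSG00000024990, chr19:38116629-38125281, minus strand) encodes the carrier of retinol in plasma, which liver and fat release. The level was 22.7, 31.3 and 28.7 CPM at 1 dpi and 25.2, 36.4 and 19.7 CPM at 2 dpi. It was 8.51, 24.5, 13.7 and 9.78 CPM at 3 dpi, 16.2, 10.5 and 15.6 CPM at 4 dpi, 7.08 CPM at 5 dpi and 9.81, 15.2 and 20.7 CPM at 6 dpi. The first 2 days were the highest, 3 dpi overlapped with both through replicate 2, and all libraries of 4 dpi were below those of 1 and 2 dpi.

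No step passed for *Rbp4* in edgeR with the filter on low counts. The difference of 3 from 2 dpi was -0.94 on the log2 scale (SE 0.34, adjusted p = 0.14 by edgeR) and became -1.34 (0.018) without 3 dpi replicate 2. That of 6 from 1 dpi was -0.86 (95% interval -1.63 to -0.09, adjusted p = 0.13), although the libraries of those days did not overlap. From 2 to 3 dpi none of the 8 genes passed in edgeR with the filter, where 2.94% of all genes did. Of the 8, 3 (*Adh1*, *Rbp4* and *Aldh1a3*) had an unadjusted p under 0.05, beside 18.3% of all genes. DESeq2 called 1, *Adh1* (adjusted p = 0.03), beside 7.58%. Without the filter edgeR called 2, *Adh1* (adjusted p = 8.4e-06) and *Rbp4* (0.05 when rounded), beside 980 of all 20569 genes. Over the 17 libraries *Klf10* (r = 0.85) and *mt-Nd5* (0.83) were most like *Rbp4*.

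*Crabp2* (ENSMUSG00000004885, chr3:87948666-87953376, plus strand) encodes the protein that delivers retinoic acid to its receptors. It was the 1 gene of the 8 that rose over the course. The level was 4.94, 5.03 and 11.4 CPM at 1 dpi, 5.67, 5.52 and 9.0 CPM at 2 dpi, and 10.2, 4.51, 4.09 and 4.25 CPM at 3 dpi. It was 14.2, 20.4 and 5.02 CPM at 4 dpi, 21.8 CPM at 5 dpi and 17.5, 22.7 and 26.3 CPM at 6 dpi. Replicate 3 of 4 dpi lay within the early days, whereas all libraries of 5 and 6 dpi were above every library of 1, 2 and 3 dpi.

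*Crabp2* was 3.08-fold higher at 6 than at 1 dpi (log2 fold change 1.62, SE 0.47, adjusted p = 0.028 by edgeR). The difference of 4 from 3 dpi was 1.21 (SE 0.43, adjusted p = 0.14) and passed without 4 dpi replicate 3 (1.58, adjusted p = 0.048). It also passed in edgeR without the filter on low counts (adjusted p = 0.026). The call of 6 against 1 dpi was lost without 1 dpi replicate 1 (0.12), 1 dpi replicate 2 (0.11), 6 dpi replicate 2 (0.075) or 6 dpi replicate 3 (0.051), with a log2 fold change of 1.41 to 1.6 in those fits. Among the libraries with more *Xist* counts, in which 1 dpi is 1 library, the difference was 2.17. The 5 dpi library held 21.8 CPM, within the levels of 6 dpi, and has the Y-linked pattern and a cardiomyocyte sum of 13.3 CPM. It is 1 library, and the part of sex-linked and cardiomyocyte RNA in the *Crabp2* result was not tested. *Tmsb4x* (r = 0.89), which encodes an actin-binding peptide, and *Wwp2* (0.875) were most like it over the 17 libraries.

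*Cyp26b1* (ENSMUSG00000063415, chr6:84571414-84593908, minus strand) encodes an enzyme that clears retinoic acid, and its counts were few. The library counts were 13, 38 and 20 at 1 dpi, 0, 39 and 0 at 2 dpi, 9, 7, 30 and 34 at 3 dpi, 0, 11 and 13 at 4 dpi, 15 at 5 dpi and 11, 20 and 33 at 6 dpi. The libraries without a count were 2 dpi replicates 1 and 3 and 4 dpi replicate 1, where 3 counts would be 0.168, 0.175 and 0.172 CPM of the unnormalised totals. Levels reached 3.62 CPM in 3 dpi replicate 4, and the days with replicates overlapped. The log2 fold change of 6 from 1 dpi was 0.24 with a 95% interval of -2.46 to 2.95, so that a several-fold difference either way lies within the interval; the sign turned to -0.21 without 6 dpi replicate 3.

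*Rarb* (ENSMUSG00000017491, chr14:16430839-16819156, minus strand) encodes the receptor whose promoter window carries the repeat shown. Its counts were 26, 96 and 115 at 1 dpi, 23, 36 and 76 at 2 dpi, 27, 50, 23 and 26 at 3 dpi, 27, 62 and 14 at 4 dpi, 14 at 5 dpi and 8, 46 and 30 at 6 dpi. As CPM this was 3.29 to 5.62 at 1 dpi and 0.516 to 3.92 at 6 dpi, and the days with replicates overlapped. The difference of 6 from 1 dpi was -0.95 on the log2 scale with a 95% interval of -2.32 to 0.43 (adjusted p = 0.37 by edgeR). *Top2b*, on the other strand, shares exon positions with *Rarb* and had 92 to 860 counts, and the sources used here do not say whether strand was used in counting. *Cyp26a1*, the other gene shown with a repeat, had 0 to 86 counts in a library and did not pass in the time course (adjusted p = 0.41).

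Between the ends of the course, 6 against 1 dpi, 4 of the 8 genes passed (12.1% of all genes). Of these *Adh1*, *Aldh1a2* and *Aldh1a3* fell, where 5.21% of all genes were called lower, and *Crabp2* rose, where 6.91% were called higher. The median log2 fold change of the 8 genes was -0.9 against 0.03 over all genes tested. DESeq2 also called 4 of the 8, beside 17.3% of all genes. Among the 7 libraries with more *Xist* counts, in which 1 dpi is 1 library with no spread of its own, 1 of the 8 passed, *Aldh1a3*, beside 3.35%. Of the marker lists, 5 of 6 cardiomyocyte, 3 of 6 mural and 5 of 8 fibroblast markers also passed between these days, as did *Fabp4* of the 6 adipocyte markers (adjusted p = 0.042 by edgeR). The summed mural level went from 41 to 76.8 CPM at 1 dpi to 142 to 172.5 CPM at 6 dpi, the fibroblast sum from 12399.5 to 18126.9 CPM to 21377.2 to 31530.9 CPM, and the adipocyte sum from 29.5 to 90.7 CPM to 5.3 to 18.8 CPM. The part of these in the result was not tested.

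**Figure D3:**
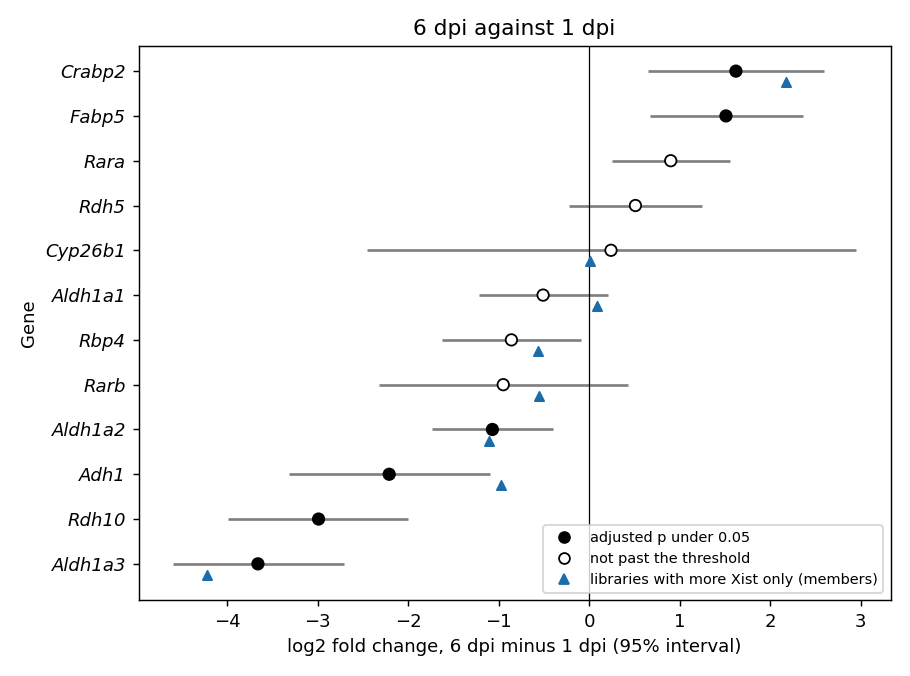
log2 fold change of 6 dpi from 1 dpi (x axis, with 95% intervals) for the 8 retinoid genes and 4 further genes of the pathway (y axis), with filled points for an adjusted p under 0.05. Triangles give the 8 genes in the 7 libraries with more Xist counts, where Adh1 moved from -2.21 to -0.98 and Aldh1a3 from -3.66 to -4.22.

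The rest of the pathway was read from a list of 45 further retinoid genes, of which 29 had enough counts to be tested. In the time course 4 of the 29 passed (13.8%, beside 15.0% of all genes): 1 of 4 genes of transport and uptake (*Fabp5*), 2 of 11 enzymes of retinol and retinaldehyde (*Rdh10* and *Rdh5*) and 1 of 6 receptors (*Rara*). By edgeR none passed of the 2 genes of storage and release, the 1 of clearance and the 5 known targets that were tested. Of these, 1 target, *Rarres2*, had an unadjusted p under 0.05 and was called by DESeq2. No count was found for *Ttr*, *Rdh7* or *Cyp26c1*.

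*Rdh10*, the main retinol dehydrogenase of the embryo, was highest at 1 dpi and lowest at 6 dpi by its means, as *Aldh1a3* was. Its level was 114, 60.0 and 69.8 CPM at 1 dpi, 39.5, 35.7 and 23.9 CPM at 2 dpi, 19.2 to 33.6 CPM at 3 dpi and 57.0, 34.5 and 18.7 CPM at 4 dpi. It was 11.7 CPM at 5 dpi and 5.36, 5.45 and 19.7 CPM at 6 dpi. The libraries of 6 dpi were all below those of 1 dpi, by 7.97-fold (log2 fold change -2.99, SE 0.48, adjusted p = 4.7e-04 by edgeR), and the call was kept without each library in turn.

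*Fabp5*, which binds fatty acids and also retinoic acid, was 28.0 to 71.5 CPM at 2 dpi and 121 to 253 CPM at 3 dpi. It passed in that step (log2 fold change 1.75, SE 0.39, adjusted p = 0.019 by edgeR). It was 1 of the 29 genes of the list (3.45%), a share near the 2.94% of all genes. Without 2 dpi replicate 2 or 3 the adjusted p of this step was 0.1 or 0.11. The leukocyte markers *Lyz2* and *Cd14*, 2 of the 8 in that list, also passed from 2 to 3 dpi (adjusted p = 0.022 and 0.0072), and the leukocyte sum went from 13.6 to 24.3 CPM to 52.9 to 189.7 CPM. In the same step 2 of 6 mural, 1 of 6 endothelial and 1 of 8 fibroblast markers passed, and the part of these lists in the *Fabp5* result was not tested. From 1 to 6 dpi *Fabp5* rose by 1.51 (SE 0.41, adjusted p = 0.02), which became 0.08, 0.072 and 0.12 without 1 dpi replicate 2, 1 dpi replicate 3 and 6 dpi replicate 2.

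*Rdh5* and *Rara*, a retinol dehydrogenase and the broadly expressed retinoic acid receptor, passed in the time course only (adjusted p = 0.038 and 0.035 by edgeR). *Rdh5* was 4.08 to 5.94 CPM at 3 dpi against 8.99 to 14.4 CPM at 2 dpi, without overlap. *Rara* was 40 to 57 CPM at 6 dpi against 20.1 to 33.5 CPM at 1 dpi, also without overlap (log2 fold change 0.9, SE 0.31, adjusted p = 0.064). Each lost its call in 9 of the 17 fits that left out 1 library, with an adjusted p of up to 0.11 for *Rdh5* and 0.16 for *Rara*.

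**Figure D4:**
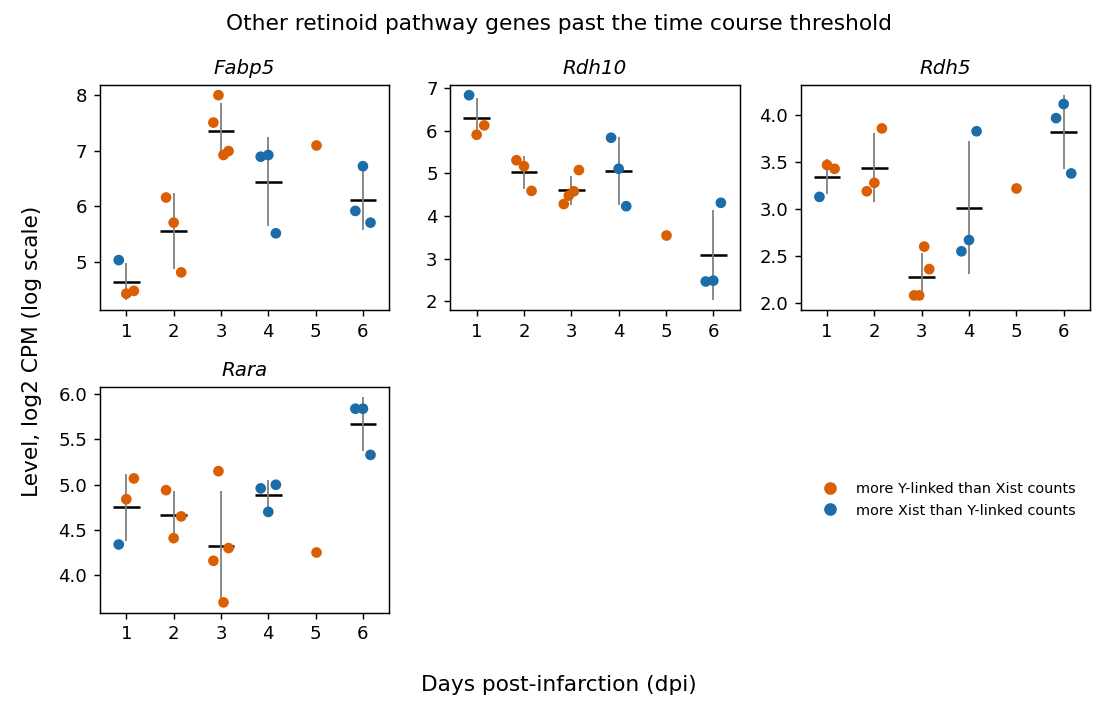
Level of Fabp5, Rdh10, Rdh5 and Rara (y axis, log2 CPM with a prior count of 2) against days post-infarction (x axis), with 1 point per library, black lines for the mean and grey lines for 1 SD. By its mean Fabp5 is highest at 3 dpi and Rdh10 is highest at 1 dpi.

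In the single steps the list gave no call by edgeR from 1 to 2, from 3 to 4 or from 4 to 6 dpi. The unadjusted p was under 0.05 for 3, 5 and 9 of its 29 genes in these steps, beside 7.58%, 18.2% and 19.9% of all genes, and DESeq2 called 0, 0 and 2, beside 0.741%, 6.39% and 6.51%. From 1 to 6 dpi 1 of the 29 genes was higher (*Fabp5*) and 1 was lower (*Rdh10*), together 6.9% beside 12.1% of all genes, and the median log2 fold change of the list was 0.46.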

How the data were processed

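The deposited file holds raw counts per Ensembl gene for 17 libraries. The authors used bcl2fastq 1.2.4 for demultiplexing, STAR for alignment to the mm10 genome and featureCounts to make the counts per gene; strand use and the treatment of molecular identifiers are not given in the sources used here. The counts are 3′ tags, so their number does not depend on transcript length as in whole-transcript data.

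Groups are the days in the sample titles. A gene entered the tests when 3 or more libraries held 10 or more of its counts, and was tested in edgeR 4.0.16 (R 4.3.3; TMM, glmQLFit and glmQLFTest, 1 fit of all 17 libraries with day as a factor), with Benjamini-Hochberg adjustment over all 14030 genes and a threshold of 0.05. The SE is the absolute log2 fold change divided by the square root of F, and intervals are 95%. The study calls the replicates biological, but no label ties a library to an animal, so p-values measure the spread between libraries. Replicate pairs differed by 23.03 to 229.68 in chi-square per degree of freedom (18 pairs), so none was a duplicate. The pairs of 3 dpi replicate 2 were at 174.56 to 229.68, and the other pairs of 3 dpi at 24.46 to 38.62. The pairs of 4 dpi replicate 3 were at 105.44 and 133.44, and the other pair of 4 dpi at 23.03. These 2 libraries thus stood apart from the rest of their day over all genes. Replicate numbers did not pair the libraries: deviations from the day means correlated with a mean r of 0.011 over 30 pairs of the same number and -0.005 over 72 other pairs.

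Alternatives were DESeq2 1.42.0 (a likelihood ratio test for the time course), its size factors in edgeR, no filter on low counts, the replicate number as a block, the 2 days alone, each library left out, libraries with more Y-linked counts and, for levels, raw library sizes and a prior count of 0.5. The fit of libraries with more *Xist* counts, in which 1 dpi is 1 library assumed to vary like the others, and the alternatives for the wider list were added after seeing the data. The scripts were tested on simulated data. The genes named are the 8, genes of the wider list past the threshold in the time course, and the 2 genes most correlated with each called gene; *Rarres2*, *Cyp26a1*, *Bco1*, marker genes and genes without a count were named after their values were seen. 1 gene of the wider list is not reported here and was left out of its counts. The 8 genes and all lists were chosen with earlier results of these data known. Positions are from GENCODE vM21 (GRCm38).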

Additional observations from a re-analysis of the deposited data

Results flagged for a closer look

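Among the 8 retinoid genes, the 4 libraries of 3 dpi were examined for a library far from the others, and 1 gene had one. *Crabp2* stood at 3.37 log2 CPM in 3 dpi replicate 1 against 2.08 to 2.22 in the other 3, a gap of 0.894 of the whole range, which is above Dixon's 95% critical value for 4 samples. Chance gives about 1 such library in 20 groups. The other days have fewer than 4 libraries and were not examined.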

How the results depend on the processing

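The cause of the changes below was not tested. The share of all genes called also changed with the setting. DESeq2 called 26.8% in the time course, against 15.0% in edgeR. In the 4 steps it called 0.741%, 7.58%, 6.39% and 6.51%, against 0.178%, 2.94%, 2.71% and 0.513%. From 1 to 6 dpi it called 17.3%, against 12.1%. In the time course 18.1% passed without the filter and 3.41% in the libraries with more Y-linked counts. Counts over all genes for the other fits follow below. For the 8 retinoid genes, the time course gave 6 calls in DESeq2 and 6 without the filter, in both with *Aldh1a2*, 4 to 6 without 1 library and 2 in the libraries with more Y-linked counts. From 1 to 2 dpi the 1 call became 2 without the filter (with *Adh1* added), 0 in the Y-linked libraries and 0 to 1 without 1 library. From 2 to 3 dpi the 0 calls became 1 in DESeq2, 2 without the filter (*Adh1* and *Rbp4*) and 0 to 1 without 1 library. From 3 to 4 dpi the 1 call became 2 in DESeq2 and 3 without the filter (*Adh1*, *Aldh1a1* and *Crabp2*). It became 0 in the fit of the 2 days and 0 to 2 without 1 library. From 4 to 6 dpi the 1 call became 0 with the replicate block and 0 to 1 without 1 library. It also became 0 in the fit of the 2 days and in the libraries with more *Xist* counts, which hold the same libraries of both days. From 1 to 6 dpi the 4 calls became 1 in the libraries with more *Xist* counts and 2 to 4 without 1 library. The sign turned for 2 values that had not passed: *Cyp26b1* from 1 to 6 dpi was -0.12 with the replicate block and ranged from -0.21, without 6 dpi replicate 3, to 0.61 without 1 library, and *Aldh1a1* was 0.09 in the libraries with more *Xist* counts. The block, whose numbers do not pair the libraries, also ended the *Rbp4* call in the time course (adjusted p = 0.06).

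Over all genes, the time course gave 3757 calls in DESeq2, 3729 without the filter and 459 in the Y-linked libraries, against 2099. The numbers of genes tested differed. They were 14030 in edgeR with the filter, also with the replicate block, 12395 to 14026 in DESeq2 and 20569 without the filter. In the Y-linked libraries 13463 were tested, in those with more *Xist* counts 12967, and in the fits of 2 days 12812 to 12931. The steps gave, for 1 to 2 dpi, 104 in DESeq2, 153 without the filter, 8 in the Y-linked libraries and 63 in the fit of the 2 days, against 25. From 2 to 3 dpi there were 1042, 980, 174 with the replicate block and 252 in the fit of the 2 days, against 412. From 3 to 4 dpi there were 879, 866, 243 and 125, against 380, and from 4 to 6 dpi 807, 882, 28 and 14, with 11 in the libraries with more *Xist* counts, against 72. From 1 to 6 dpi the 1700 calls became 435 in the libraries with more *Xist* counts. Without 1 library the counts ranged from 1307 (6 dpi replicate 1) to 3466 (3 dpi replicate 2) in the time course, from 13 (1 dpi replicate 1 or 2 dpi replicate 3) to 32 (3 dpi replicate 2), from 46 (2 dpi replicate 2) to 734 (3 dpi replicate 2), from 126 (4 dpi replicate 2) to 722 (3 dpi replicate 2) and from 3 (4 dpi replicate 2) to 1402 (6 dpi replicate 3) in the 4 steps, and from 763 (6 dpi replicate 2) to 2577 (6 dpi replicate 3) from 1 to 6 dpi. In the time course the wider list gave 4 calls of 29 genes tested, beside 15.0% of all genes. DESeq2 gave 8 calls of the list, beside 26.8% of all genes. Without the filter, where more genes of the list were tested, there were 8 as well, beside 18.1%. The replicate block gave 2, beside 1494 of all 14030 genes, and the Y-linked libraries gave 2, beside 3.41%. Without 1 library the list gave 2 to 9 calls (9 without 3 dpi replicate 2). The 96 recomputed levels by day moved by less than 1 SD. *Cyp26b1* and *Rarb* had at most 39 and 115 counts in a library; the *Cyp26b1* counts of 0, 39 and 0 at 2 dpi are a spread between libraries, and how much of the wide intervals comes from depth was not tested.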
